A study of Homo sapiens with 8 samples.

Results

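Metallothioneins, zinc transporters and the zinc-sensing transcription factor MTF1 were described in human intestinal epithelial cells (hIECs) that had been derived from the human embryonic stem cell line H9. The members were the protein-coding genes named as metallothioneins (MT1 to MT4), as ZnT transporters (SLC30A genes) or as ZIP transporters (SLC39A genes), together with MTF1. This gave 36 genes of the 19957 protein-coding genes and 60558 genes in all, namely 11 metallothioneins, 10 ZnT genes, 14 ZIP genes and MTF1. RNA-seq covered 4 groups of 2 libraries each. Normal hIECs received no cytokine and no particles. Normal hIECs with PM10 received particulate matter 10, a reference dust, at 100 μg/ml for the last 7 days. Inflamed hIECs were kept for 10 days with TNFα and IFNγ, each at 50 ng/ml, and inflamed hIECs with PM10 received both treatments. The sample records give a treatment of 10 day for all 8 libraries, all of them come from 1 line, and nothing states that the 2 libraries of a group were separate cultures, so the p-values measure only the spread between libraries.

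Zinc is a cofactor of many enzymes and transcription factors, and its free level in the cytosol is kept low. Metallothioneins are small proteins rich in cysteine, whose thiol groups bind zinc and copper and also toxic metals such as cadmium. ZIP transporters bring zinc into the cytosol from outside the cell or from organelles, and ZnT transporters move it the other way, out of the cell or into vesicles and the secretory pathway. MTF1 senses zinc and binds metal response elements in the promoters of metallothionein genes and of SLC30A1, the zinc exporter of the plasma membrane. In enterocytes, SLC39A4 takes up dietary zinc at the apical surface and SLC30A1 passes it on at the basolateral side.

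Expression was given as FPKM, the fragments of a transcript scaled to its length and to all fragments mapped in the library, which allows levels of different genes to be compared per length. Read counts were not used, so depth was estimated from the lowest FPKM above 0 in each library, which was assumed to stand for a mean depth of 1. Under this assumption, 1 FPKM stood for a mean depth between 4.38 and 6.11 over a transcript. Genes encoded by mitochondrial DNA held between 15.5% and 24.2% of the FPKM total. The hIEC label was compared with markers. Of 20 intestinal epithelial markers, 11 were listed at 0 in all 8 libraries, including CDX2, VIL1, MUC2, LYZ and CHGA, and the epithelial adhesion gene EPCAM stayed at or below 0.622 FPKM. Of the same list, the keratins KRT8 and KRT18, which occur in many simple epithelia and some other cells, were between 185 and 383 FPKM and between 100.1 and 266 FPKM, and LGR5, a marker of intestinal stem cells, was between 2.01 and 2.63 FPKM without cytokines and between 5.26 and 8.28 FPKM with them. All 14 mesenchymal markers passed the filter below, with summed levels between 5628 and 7870 FPKM per library. Most markers of differentiated intestinal epithelium were thus at or near 0, while these 3 and KRT19 (at or above 0.798 FPKM) were detected in every library, and the cells are called hIECs as the labels name them. In bulk RNA, fewer cells of a type and less RNA per cell cannot be told apart.

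A gene was tested when it reached 1 FPKM in at least 2 libraries, which 14206 genes did. Differences were taken on the log2(FPKM + 1) scale, which understates changes of weakly expressed genes, and tested with limma across all 14206 genes, with Benjamini-Hochberg adjustment within each comparison and a threshold of 0.05. Of the 36 members, 23 were tested, namely 4 metallothioneins, 7 ZnT genes, 11 ZIP genes and MTF1. The filter lets a gene through on its higher groups alone, and MT1E and MTF1 (each at 1 FPKM or more in 5 libraries) and SLC30A3 (in 4) passed mainly or wholly in this way, so the counts of members below describe these 23 genes and not the families as a whole. For 1 gene taken alone, 2 libraries against 2 allow an exact permutation p of 0.333 at the lowest.

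Among the 13 members left out of the tests, 9 were listed at 0 in all 8 libraries. These were MT1B, MT1H, MT1M, MT3 (known from brain), MT4 (known from squamous epithelia), SLC30A2, SLC30A8 (the zinc transporter of insulin granules), SLC39A5 and SLC39A12. The other 4 stayed below 0.41 FPKM. MT1A was at 0.351 FPKM in 1 inflamed library and 0.352 FPKM in 1 inflamed library with PM10, and at 0 elsewhere. MT1G was at 0.254 FPKM in 1 normal library with PM10 and 0.406 FPKM in 1 inflamed library. SLC39A2 was at 0.164 and 0.283 FPKM in the normal libraries only, and SLC30A10, a manganese exporter, was at 0.175 FPKM in 1 normal library.

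The 4 metallothioneins that were tested, MT2A, MT1X, MT1E and MT1F, lie in 1 cluster on chromosome 16 with the other family members, which spans chr16:56565073-56684196 on GRCh38. Their coding sequences are shown because the products differ little and because near-identical copies can share reads. The sequences were read from GENCODE release 44, without the stop codon, with the 20 cysteine codons of each in capitals.

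MT2A: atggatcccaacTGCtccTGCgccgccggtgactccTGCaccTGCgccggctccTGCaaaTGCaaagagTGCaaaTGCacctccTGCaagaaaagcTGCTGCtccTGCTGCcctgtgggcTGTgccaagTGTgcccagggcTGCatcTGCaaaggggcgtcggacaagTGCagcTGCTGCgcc
MT1X: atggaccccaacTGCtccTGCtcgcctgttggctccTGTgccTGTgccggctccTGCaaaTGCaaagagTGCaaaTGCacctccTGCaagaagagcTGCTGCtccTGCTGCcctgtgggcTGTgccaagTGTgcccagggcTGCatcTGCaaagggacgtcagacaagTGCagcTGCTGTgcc
MT1E: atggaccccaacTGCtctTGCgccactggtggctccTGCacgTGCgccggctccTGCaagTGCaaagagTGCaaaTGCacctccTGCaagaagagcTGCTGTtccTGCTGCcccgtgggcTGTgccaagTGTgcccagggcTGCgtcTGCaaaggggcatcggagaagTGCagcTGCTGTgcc
MT1F: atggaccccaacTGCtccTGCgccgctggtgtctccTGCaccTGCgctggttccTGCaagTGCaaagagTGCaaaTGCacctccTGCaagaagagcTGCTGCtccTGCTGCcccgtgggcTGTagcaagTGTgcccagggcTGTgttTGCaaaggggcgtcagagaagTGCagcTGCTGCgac

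Each coding sequence has 183 bases in 61 codons. Pairs of these sequences shared between 88.5% (MT1X and MT1F) and 92.4% (MT2A and MT1X, MT2A and MT1E) of their bases. The reads were 100 bases long. For each of these 4 genes, the 1 transcript that holds the coding sequence shown was compared with the annotated transcripts of the family. The family has 22 annotated genes and pseudogenes. No 100-base stretch occurred unchanged in a transcript of another gene, but between 5.34% (MT1E) and 18.0% (MT1X) of 50-base stretches did. Stretches that differ by a few bases were not counted. The split of reads among copies is thus uncertain where a read carried little distinct sequence. MT1X also shares 18.6% of its exon bases with an overlapping gene on the same strand.

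MT2A was the most abundant metallothionein in every library. It was at 80.3 and 98.7 FPKM in normal hIECs, 65.2 and 70.0 FPKM in normal hIECs with PM10, 389 and 402 FPKM in inflamed hIECs, and 497 and 470 FPKM in inflamed hIECs with PM10. The 4 libraries with cytokines were all far above the 4 without, and within each pair of groups that differ by PM10 the values did not overlap, lower with PM10 in normal hIECs and higher with PM10 in inflamed hIECs. Among genes outside mitochondrial DNA, MT2A ranked between 830th and 509th by FPKM without cytokines and between 131st and 98th with them.

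MT1E showed the largest relative difference. Its levels were 1.24 and 0.954 FPKM in normal hIECs, 0.728 and 0.671 FPKM in normal hIECs with PM10, 11.1 and 10.6 FPKM in inflamed hIECs, and 13.7 and 14.2 FPKM in inflamed hIECs with PM10. As for MT2A, the 4 groups did not overlap, and their order was the same.

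MT1X differed less, with 14.2 and 17.6 FPKM in normal hIECs, 18.3 and 16.8 FPKM with PM10, 21.2 and 22.03 FPKM in inflamed hIECs, and 22.3 and 22.6 FPKM in inflamed hIECs with PM10. The libraries with cytokines were above those without, while the normal libraries overlapped those with PM10. MT1F was weakly expressed, with 2.93 and 1.26 FPKM in normal hIECs, 1.44 and 1.41 FPKM with PM10, 3.72 and 3.81 FPKM in inflamed hIECs, and 2.89 and 3.05 FPKM in inflamed hIECs with PM10. The first normal library stood apart from its partner for MT1F, close to the level of the inflamed libraries with PM10.

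The summed metallothionein level was 109 ± 14 FPKM in normal hIECs (SD, n = 2), 87.4 ± 2.14 FPKM in normal hIECs with PM10, 432 ± 9.67 FPKM in inflamed hIECs and 523 ± 18.9 FPKM in inflamed hIECs with PM10 (each SD, n = 2). MT2A made up between 75.9% and 83.3% of this sum without cytokines and between 91.4% and 92.7% with them.

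**Figure D1:**
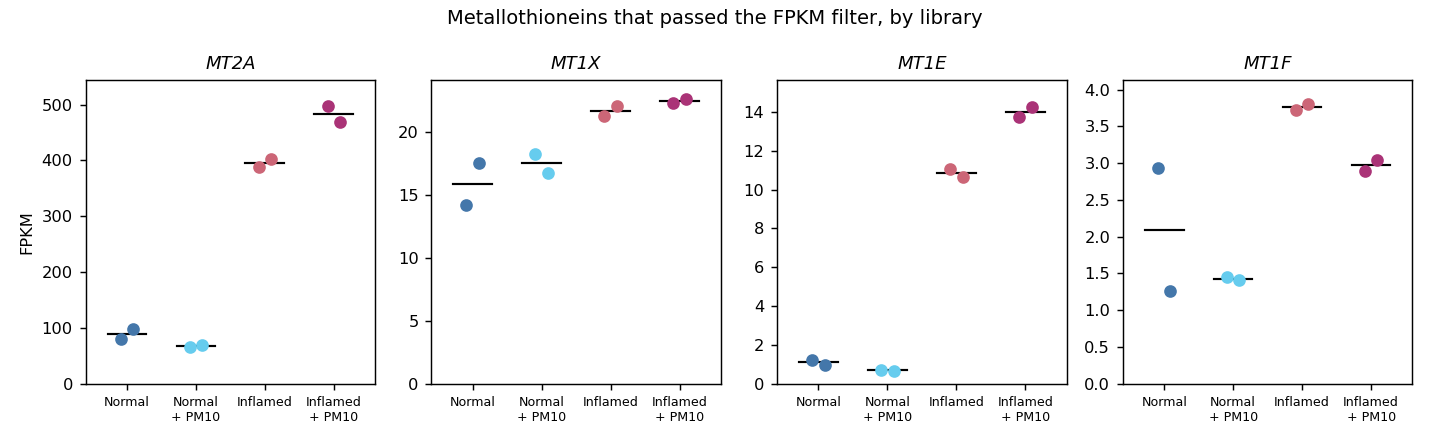
FPKM (linear axes from 0, one per gene) of the 4 metallothioneins that were tested, with a point for each library, 2 per group, and a line at the group mean. MT2A and MT1E sit several times higher in the 4 libraries with cytokines, and with PM10 their mean is lower in normal and higher in inflamed hIECs.

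The first comparison asked how the metallothioneins and transporters differed between inflamed and normal hIECs, in the absence of PM10. All 4 metallothioneins that were tested rose. By the ratio of mean FPKM, MT1E was 9.92 times and MT2A 4.41 times as high in inflamed as in normal hIECs, against 1.36 times for MT1X. MT1E passed the filter mainly through the libraries with cytokines, so its calls in the cytokine comparisons add no support beyond the values themselves. On the log2(FPKM + 1) scale the differences were 2.50 ± 0.082 for MT1E (SE, limma, adjusted p = 4.96e-07), 2.14 ± 0.093 for MT2A (adjusted p = 1.94e-06), 0.43 ± 0.093 for MT1X (adjusted p = 0.00606) and 0.68 ± 0.219 for MT1F (adjusted p = 0.0321, limma). Leaving out the first normal library moved the value of MT1F to 1.08 and leaving out the second moved it to 0.28, and its call was lost without either inflamed library (adjusted p = 0.098 and 0.107) and, by a small margin, without any 1 of the 4 libraries with PM10 (adjusted p of 0.0508 or 0.0509, limma). It was also lost when only the normal and inflamed libraries were fitted (0.0803).

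Across all 23 members tested, 16 rose and 4 fell with cytokines in the absence of PM10, where 25.9% of all 14206 genes were called higher and 30.3% lower. The median difference of the members was 0.37 on the log2 scale, beside -0.03 over all genes tested. By family, 4 of 4 metallothioneins, 6 of 11 ZIP genes, 5 of 7 ZnT genes and MTF1 rose, and 3 ZIP genes and 1 ZnT gene fell.

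Cytokines were compared a second time in the presence of PM10, with libraries that the first comparison did not use, although all 8 libraries shared 1 estimate of the spread. Again 16 members rose and 4 fell, where 25.8% of all genes were called higher and 39.6% lower, and the median of the members was 0.39 beside -0.11 over all genes. The log2 differences were 3.14 ± 0.082 for MT1E (SE, limma, adjusted p = 1.26e-07) and 2.82 ± 0.093 for MT2A (adjusted p = 3.77e-07), or 19.98 and 7.15 times by the ratio of mean FPKM. MT1E was below 1 FPKM in both normal libraries with PM10, so its ratio was taken against a mean of 0.700 FPKM. The log2 differences were 0.34 ± 0.093 for MT1X (adjusted p = 0.0141, limma) and 0.71 ± 0.219 for MT1F (adjusted p = 0.0229). Both of these calls were lost without either inflamed library with PM10 (adjusted p between 0.0532 and 0.0893), that of MT1X also without the second normal library with PM10 (0.0847), and that of MT1F also without either (0.0747 and 0.0832). The sign of the difference was the same in both cytokine comparisons for 23 of 23 members, beside 85.6% of all genes tested, and 18 members were called in the same direction in both (14 higher and 4 lower), beside 48.3% of all genes tested.

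**Figure D2:**
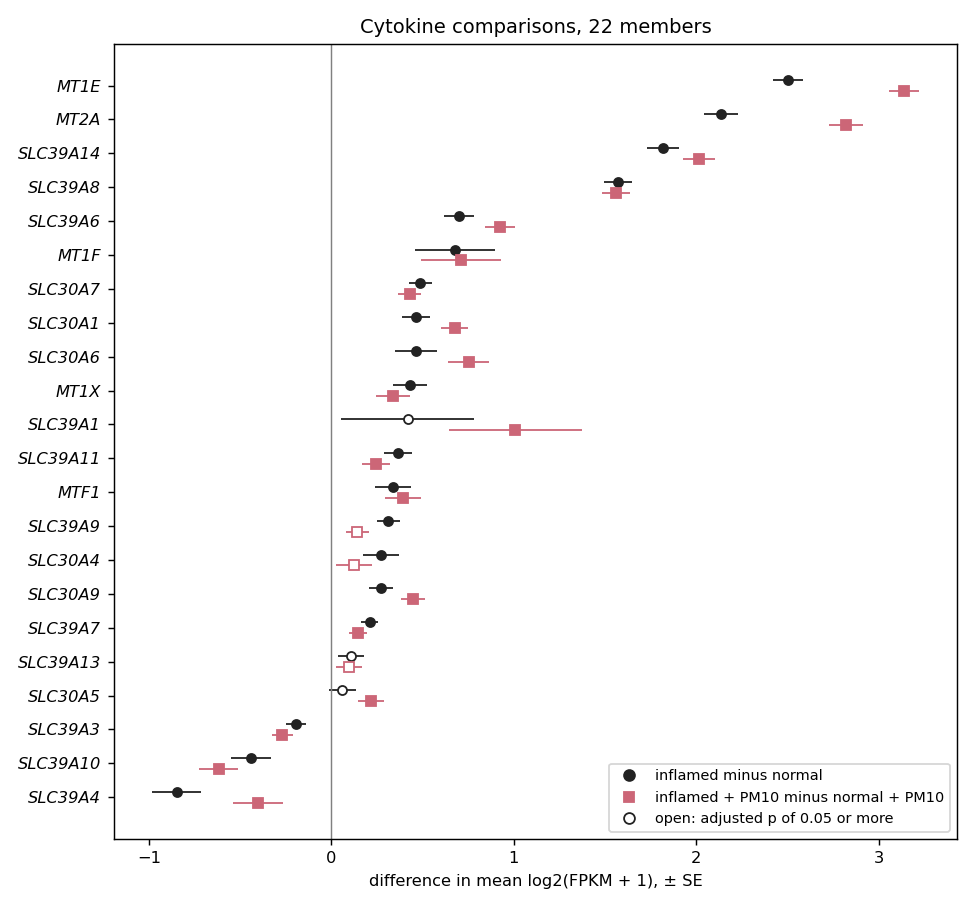
Difference in mean log2(FPKM + 1) with its SE from limma for 22 members, inflamed minus normal (black circles) and inflamed with PM10 minus normal with PM10 (red squares), with open symbols where the adjusted p was 0.05 or more. MT1E, MT2A, SLC39A14 and SLC39A8 lie beyond 1 in both comparisons, SLC39A4, SLC39A10 and SLC39A3 lie below 0 in both, and SLC30A3 is not drawn because it was listed at 0 in every library with cytokines.

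Among the ZIP transporters of the plasma membrane, SLC39A14 and SLC39A8 rose most. Both carry manganese and iron as well as zinc, and SLC39A14 is known to be induced by interleukin 6 in liver. SLC39A14 was at 7.44 and 6.06 FPKM in normal hIECs, 6.91 and 7.24 FPKM with PM10, 26.0 and 26.4 FPKM in inflamed hIECs, and 30.7 and 32.8 FPKM in inflamed hIECs with PM10. All libraries with cytokines were more than 3 times as high as any library without. The log2 difference was 1.82 ± 0.088 without PM10 (SE, limma, adjusted p = 3.38e-06) and 2.02 ± 0.088 with PM10 (adjusted p = 1.46e-06).

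SLC39A8 was at 8.75 and 7.80 FPKM in normal hIECs, 10.1 and 8.86 FPKM with PM10, 26.1 and 26.9 FPKM in inflamed hIECs, and 29.5 and 30.3 FPKM in inflamed hIECs with PM10. Its log2 difference with cytokines was 1.57 ± 0.077 without PM10 (SE, limma, adjusted p = 3.63e-06) and 1.56 ± 0.077 with PM10 (adjusted p = 2.76e-06). Thus SLC39A8 and SLC39A14 started from similar levels and both ended near 30 FPKM.

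SLC39A6 and SLC39A10, close relatives whose products form a complex at the cell surface, moved in opposite directions. SLC39A6 was at 16.6 and 13.7 FPKM in normal hIECs, 15.7 and 15.8 FPKM with PM10, 25.4 and 24.7 FPKM in inflamed hIECs, and 30.9 and 30.7 FPKM in inflamed hIECs with PM10. It rose by 0.70 ± 0.083 without PM10 (SE, log2, limma, adjusted p = 0.000309) and by 0.92 ± 0.083 with PM10 (adjusted p = 5.52e-05). SLC39A10 was at 4.04 and 4.20 FPKM in normal hIECs, 4.31 and 4.47 FPKM with PM10, 3.07 and 2.49 FPKM in inflamed hIECs, and 2.82 and 2.23 FPKM in inflamed hIECs with PM10. It fell by 0.44 ± 0.108 without PM10 (adjusted p = 0.0103, limma), a call that was lost without the second inflamed library (0.0655), and by 0.62 ± 0.108 with PM10 (adjusted p = 0.00167).

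SLC39A4, the importer of dietary zinc in enterocytes and the gene mutated in acrodermatitis enteropathica, was lower with cytokines. Its levels were 9.73 and 10.5 FPKM in normal hIECs, 10.2 and 8.86 FPKM with PM10, 4.37 and 6.08 FPKM in inflamed hIECs, and 6.53 and 7.41 FPKM in inflamed hIECs with PM10. No library with cytokines reached the level of a library without. The log2 difference was -0.85 ± 0.135 without PM10 (SE, limma, adjusted p = 0.00137) and -0.40 ± 0.135 with PM10 (adjusted p = 0.032). The second of these values was not called under median centring or quantile normalization (adjusted p = 0.0568 and 0.0685, limma) or without either normal library (0.0501 and 0.05), the first normal library with PM10 (0.162) or either inflamed library with PM10 (0.155 and 0.0528).

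The summed epithelial markers were lower with cytokines too, although of the 4 that were tested KRT8 and KRT18 fell and LGR5 rose (by 0.97 without and 1.45 with PM10 on the log2 scale, limma, adjusted p = 0.00013 and 1.16e-05). Their sum, nearly all of it from KRT8 and KRT18, was between 644 and 654 FPKM in normal hIECs, between 601 and 638 FPKM with PM10, between 352 and 358 FPKM in inflamed hIECs and between 295 and 313 FPKM in inflamed hIECs with PM10, while 11 of the 20 markers were at 0 throughout. The summed mesenchymal markers were between 6441 and 6463 FPKM in normal hIECs, between 5628 and 5692 FPKM with PM10, between 7782 and 7870 FPKM in inflamed hIECs and between 7323 and 7353 FPKM in inflamed hIECs with PM10. Single mesenchymal markers moved both ways with cytokines, 8 of 14 higher and 4 lower without PM10, and 9 higher and 5 lower with it, with LUM (1.31 and 1.62) among those that rose and PDGFRA (-0.69 and -1.02) and COL3A1 (-0.53 and -1.13, log2) among those that fell. Of 10 proliferation markers, 9 were called higher with cytokines without PM10 and all 10 with PM10. Of the 12 neuronal markers, 8 passed the filter. The sums of all 12 were between 366 and 420 FPKM without cytokines and between 211 and 217 FPKM with them. Single neuronal markers moved both ways with cytokines, 5 lower and 1 higher without PM10, and 6 lower and 1 higher with it. NEFM (-1.33 and -2.08) was among those that fell, and SYP rose (0.42 and 0.94, log2). The part of these shifts in the differences of the members was not tested.

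SLC39A7, which releases zinc from the endoplasmic reticulum, was the most abundant transporter in every library, with 83.8 and 77.9 FPKM in normal hIECs, 96.7 and 95.0 FPKM with PM10, 93.3 and 93.8 FPKM in inflamed hIECs, and 107 and 105 FPKM in inflamed hIECs with PM10. The normal libraries were lowest and those with both treatments highest. SLC39A7 rose by 0.21 ± 0.049 with cytokines (SE, log2, limma, adjusted p = 0.00849) and by 0.15 ± 0.049 in the presence of PM10 (adjusted p = 0.0319), the latter not called under quantile normalization (0.09, adjusted p = 0.0929), without the variance trend of the fit (0.0699) or without any 1 of the libraries other than the normal ones (adjusted p between 0.0561 and 0.141, limma). Its exons overlap those of RXRB on the opposite strand over 9.02% of their bases, which libraries without strand information cannot tell apart.

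SLC39A11 was between 4.61 and 5.93 FPKM without cytokines and between 6.13 and 7.37 FPKM with them, and it rose in both comparisons (0.37 ± 0.077 and 0.25 ± 0.077, log2 ± SE, limma, adjusted p = 0.00515 and 0.0243). The second call was lost without either normal library with PM10 (0.0596 and 0.112) or the first inflamed library with PM10 (0.137). SLC39A9, a transporter of the Golgi apparatus, was at 7.58 and 7.21 FPKM in normal hIECs and at 9.62 and 9.21 FPKM in inflamed hIECs, a rise of 0.31 ± 0.064 (adjusted p = 0.00454, limma). Its difference in the presence of PM10 was 0.14 ± 0.064 (adjusted p = 0.085).

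SLC39A3 fell slightly, from 15.9 and 16.96 FPKM in normal to 14.1 and 14.3 FPKM in inflamed hIECs (-0.20 ± 0.056, log2 ± SE, limma, adjusted p = 0.0197) and from 17.8 and 18.0 to 14.3 and 15.1 FPKM in the presence of PM10 (-0.27 ± 0.056, adjusted p = 0.00393). The first of these calls was lost without the second normal library (0.0619) or either inflamed library (0.0911 and 0.0669) and when only the normal and inflamed libraries were fitted (0.0654). SLC39A13, a transporter of intracellular vesicles that is mutated in a form of Ehlers-Danlos syndrome, stayed between 27.0 and 33.6 FPKM and was called in no comparison (0.11 ± 0.072 and 0.10 ± 0.072 with cytokines, adjusted p = 0.241 and 0.264, limma).

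SLC39A1, an importer of the plasma membrane, was the second most abundant transporter by its mean over the 8 libraries, and 1 library decided its result. It was at 43.8 and 43.6 FPKM in normal hIECs, 45.8 and 16.9 FPKM with PM10, 58.0 and 59.5 FPKM in inflamed hIECs, and 59.1 and 55.3 FPKM in inflamed hIECs with PM10. In the library at 16.9 FPKM, the second of normal hIECs with PM10, a gene on the same strand whose exons overlap those of SLC39A1, AL358472.7, was listed at 28.6 FPKM. That gene was at 2.61 and 4.43 FPKM in inflamed hIECs with PM10 and at 0 in the other 5 libraries.

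As deposited, SLC39A1 differed by 0.42 ± 0.365 with cytokines (SE, log2, limma, adjusted p = 0.36) and by 1.01 ± 0.365 in the presence of PM10 (adjusted p = 0.0419). Leaving out the library at 16.9 FPKM gave 0.31 for the second value, leaving out its partner gave 1.70, and the value was called in 9 of 18 alternative settings. With the values of both genes summed, an alternative chosen after they were seen, the levels were 43.8, 43.6, 45.8 and 45.4 FPKM without cytokines and between 58.0 and 61.8 FPKM with them. The differences were then 0.42 (adjusted p = 0.000161, limma) and 0.40 (adjusted p = 0.000144), so the size of the second depends on how reads were shared between the overlapping genes. In the annotation, 2 genes overlap the exons of SLC39A1 over 69.1% of their bases, 1 on the same strand and CREB3L4 on the opposite strand. Libraries without strand information cannot tell the reads of CREB3L4 apart there, and it was not part of the sum.

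**Figure D3:**
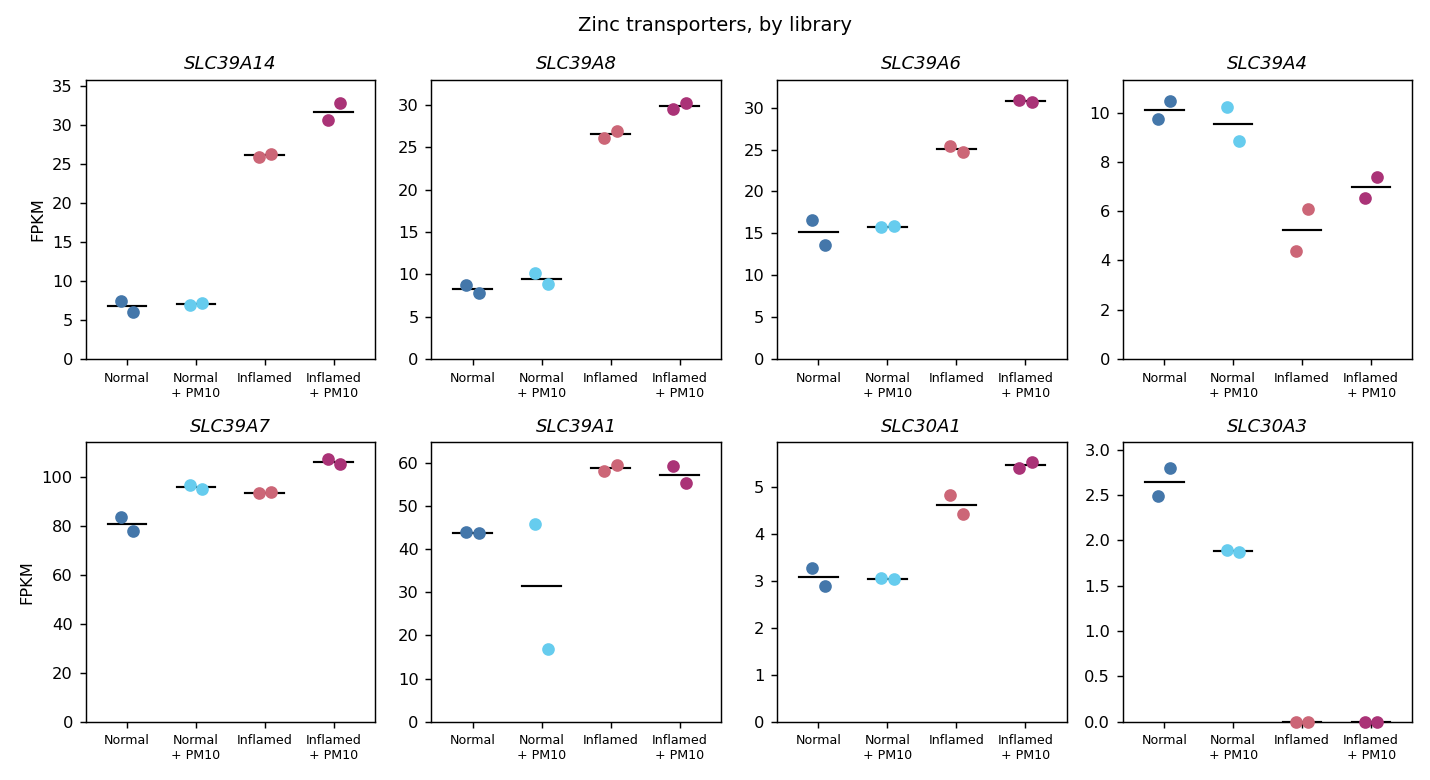
FPKM (linear axes from 0, one per gene) of 8 zinc transporters, with a point for each library, 2 per group, and a line at the group mean. SLC39A14, SLC39A8, SLC39A6 and SLC30A1 are higher and SLC39A4 is lower in all 4 libraries with cytokines, SLC30A3 is listed at 0 there, and 1 normal library with PM10 sits at 16.9 FPKM for SLC39A1.

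Metal response elements are the binding sites of MTF1, and they were looked for in the 250 bases before the transcription start in the RefSeq promoters of GRCh38.p14. Of the 36 members, 27 had at least 1 such window, among them 19 of the 23 tested. The other 9 were MT1A, MT1E, MT1F, MT1G, MT1M, MT3, SLC30A8, SLC39A4 and SLC39A14. The core was searched as TGCACNC or TGCGCNC on both strands. It occurred at least once in 24.8% of 35116 promoters of the same length and at least 4 times in 0.370% of them. Some members had more than 1 window, and 16 of the 36 windows of members held it, or 44.4%, in 15 of the 27 members. There were 7 copies for MT2A, 4 for MT1X, 8 for MT1H, and 3 each for MT1B, MT4 and SLC30A2. SLC30A3 had 1 copy in 1 window and 2 in another. A single copy was found for SLC30A1, SLC30A4, SLC30A6, SLC39A1, SLC39A3, SLC39A6, SLC39A8 and SLC39A13. That of SLC30A1 begins 49 bases before the start. The windows of 2 metallothioneins that differed with cytokines, of SLC30A1 and, for comparison, of MT1H, which was listed at 0 in every library, are shown 5′ to 3′ on the strand of the gene, with the cores of either strand in capitals. They lie at chr16:56608334-56608583 (plus strand) for MT2A, chr16:56682220-56682469 (plus strand) for MT1X, chr16:56669564-56669813 (plus strand) for MT1H and chr1:211579162-211579411 (minus strand) for SLC30A1.

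MT2A: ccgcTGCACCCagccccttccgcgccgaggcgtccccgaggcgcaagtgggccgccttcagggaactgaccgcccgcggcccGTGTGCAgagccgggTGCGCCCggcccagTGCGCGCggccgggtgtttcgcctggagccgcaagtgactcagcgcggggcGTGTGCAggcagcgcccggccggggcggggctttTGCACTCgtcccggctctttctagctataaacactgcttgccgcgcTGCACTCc
MT1X: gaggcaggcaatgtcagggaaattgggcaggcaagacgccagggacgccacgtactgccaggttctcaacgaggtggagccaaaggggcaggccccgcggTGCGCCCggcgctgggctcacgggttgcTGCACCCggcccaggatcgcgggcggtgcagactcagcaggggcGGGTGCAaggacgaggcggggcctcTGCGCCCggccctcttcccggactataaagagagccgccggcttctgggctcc
MT1H: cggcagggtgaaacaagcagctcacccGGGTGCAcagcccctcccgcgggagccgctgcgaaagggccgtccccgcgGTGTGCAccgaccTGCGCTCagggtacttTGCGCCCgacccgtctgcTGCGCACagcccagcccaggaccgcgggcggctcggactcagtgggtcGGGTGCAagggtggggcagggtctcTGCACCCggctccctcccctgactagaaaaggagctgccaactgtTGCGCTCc
SLC30A1: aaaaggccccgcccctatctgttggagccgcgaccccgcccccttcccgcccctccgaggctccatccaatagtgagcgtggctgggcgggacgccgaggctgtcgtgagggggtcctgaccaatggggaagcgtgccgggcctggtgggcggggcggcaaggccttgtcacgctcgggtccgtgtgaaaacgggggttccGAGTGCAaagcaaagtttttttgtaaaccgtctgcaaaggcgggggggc

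The number of cores did not follow the level among these genes, since MT1H with 8 was listed at 0 and MT2A with 7 reached 497 FPKM. The core of the antioxidant response element, searched as TGACNNNGC on both strands, was found in 10.9% of all promoters and in 12 of the 36 windows of members, or 33.3%, once each in 12 members. These were MT2A, MT1X, MT1B, SLC30A1, SLC30A3, SLC30A5, SLC30A9, SLC30A10, SLC39A1, SLC39A5, SLC39A7 and SLC39A13. No core of the metal response element overlapped one of the antioxidant response element in the members. A match in these letters is a description of the sequence and not a measured binding site.

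MTF1 itself was weakly expressed. It was at 0.979 and 0.720 FPKM in normal hIECs, 1.03 and 0.973 FPKM with PM10, 1.26 and 1.40 FPKM in inflamed hIECs, and 1.57 and 1.70 FPKM in inflamed hIECs with PM10. The libraries with cytokines lay above those without. MTF1 rose by 0.34 ± 0.1002 (SE, log2, limma, adjusted p = 0.0228) and by 0.39 ± 0.1002 in the presence of PM10 (adjusted p = 0.0101). It passed the filter mainly through the libraries with cytokines, so these calls add no support beyond the values themselves. The first call was lost when only the normal and inflamed libraries were fitted (0.0567) and without the second normal library or either inflamed library (0.0932, 0.0526 and 0.106, limma), and the second without the second inflamed library with PM10 (0.0562).

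Of the exporters, SLC30A1 rose with cytokines. It was at 3.26 and 2.88 FPKM in normal hIECs, 3.06 and 3.03 FPKM with PM10, 4.82 and 4.42 FPKM in inflamed hIECs, and 5.39 and 5.52 FPKM in inflamed hIECs with PM10, with no overlap between libraries with and without cytokines. The log2 difference was 0.47 ± 0.076 (SE, limma, adjusted p = 0.00149), and 0.68 ± 0.076 in the presence of PM10 (adjusted p = 0.000169).

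The transporters that supply zinc to enzymes of the secretory pathway, SLC30A5, SLC30A6 and SLC30A7, were between 3.05 and 15.9 FPKM. SLC30A7 rose from 4.28 and 3.94 FPKM in normal to 6.03 and 6.30 FPKM in inflamed hIECs, a log2 difference of 0.49 ± 0.064 (SE, limma, adjusted p = 0.000507), and by 0.43 ± 0.064 in the presence of PM10 (adjusted p = 0.000751). SLC30A6 was at 4.05 and 3.05 FPKM in normal hIECs, 3.79 and 3.52 FPKM with PM10, 5.10 and 5.37 FPKM in inflamed hIECs, and 6.42 and 7.28 FPKM in inflamed hIECs with PM10. Its differences were 0.46 ± 0.113 (SE, log2, limma, adjusted p = 0.0102) and 0.75 ± 0.113 (adjusted p = 0.000792). The first was 0.30 without the second normal library and not called without the second inflamed library (0.0549).

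SLC30A5, which forms a heterodimer with SLC30A6, was the most abundant ZnT gene, at 14.5 and 13.6 FPKM in normal and 15.6 and 13.8 FPKM in inflamed hIECs. These groups overlapped, and the difference of 0.06 ± 0.072 was not called (adjusted p = 0.502, limma). In the presence of PM10 it was at 13.1 and 13.03 FPKM without and 15.9 and 14.8 FPKM with cytokines, a rise of 0.22 ± 0.072 (adjusted p = 0.0298) that was not called without either normal library with PM10 or the first inflamed library with PM10 (0.0904, 0.106 and 0.16).

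SLC30A9, a mitochondrial zinc exporter, was at 10.5 and 9.67 FPKM in normal and 12.7 and 12.005 FPKM in inflamed hIECs, and at 10.6 and 9.83 against 14.2 and 14.3 FPKM in the presence of PM10. It rose by 0.27 ± 0.065 (SE, log2, limma, adjusted p = 0.00899, lost without the first inflamed library at 0.0619) and by 0.45 ± 0.065 (adjusted p = 0.000651). SLC30A4, a vesicular transporter, was at 1.54 and 1.88 FPKM in normal and 2.36 and 2.18 FPKM in inflamed hIECs. Its rise of 0.27 ± 0.099 lay close to the threshold (adjusted p = 0.0473, limma) and was called in 6 of 18 alternative settings. It was not called without any 1 library other than the second normal one (adjusted p between 0.0582 and 0.184, limma), and leaving out the first normal library moved it to 0.18. In the presence of PM10 the difference was 0.12 ± 0.099 (adjusted p = 0.308).

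SLC30A3, best known as the transporter that loads zinc into synaptic vesicles, was the only tested member listed at 0 in a whole group. It was at 2.49 and 2.79 FPKM in normal hIECs, at 1.89 and 1.88 FPKM with PM10, and at 0 in all 4 libraries with cytokines. It is counted among the members called lower in both cytokine comparisons. However, it passed the filter only through the 4 libraries without cytokines, so these calls add no support beyond the values themselves. No fold is given against 0.

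The effect of PM10 was compared separately in normal and in inflamed hIECs, with no library in common. Differences were small, and no member changed by 1 or more on the log2 scale in either. In normal hIECs, 2 members rose and 1 fell, where 5.51% of all genes tested were called higher and 3.72% lower. The median of the members was 0.06, the same to 2 decimals as over all genes. The genes called were SLC39A9 (0.28 ± 0.064, SE, limma, adjusted p = 0.0396), SLC39A7 (0.24 ± 0.049, adjusted p = 0.0277) and MT2A (-0.39 ± 0.093, adjusted p = 0.0448).

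These calls depended on the fit. When only the normal libraries with and without PM10 were fitted, 23 genes in place of 1311 were called in all, and none was a member. For MT2A, the adjusted p lay between 0.0767 and 0.196 when any 1 library other than the first normal library was left out, and leaving out the second normal library moved the difference to -0.25 (limma). Its call was also lost with a pseudocount of 0.1, without the filter or without the trend (0.0504, 0.0655 and 0.0656). For SLC39A9 the call was also lost without any 1 library other than the first normal one (adjusted p between 0.0722 and 0.191) and under median centring or quantile normalization (0.0565 and 0.0606) and without the filter or the trend (0.0538 and 0.0511). For SLC39A7 it was lost without the trend (0.0585) and without any 1 of the 6 libraries other than the normal ones (between 0.0605 and 0.145, limma).

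The other metallothioneins were not called with PM10 in normal hIECs. The difference was -0.30 ± 0.082 for MT1E (SE, log2, limma, adjusted p = 0.063), -0.30 ± 0.219 for MT1F (adjusted p = 0.401) and 0.14 ± 0.093 for MT1X (adjusted p = 0.358). That of MT1F rested on the first normal library, without which it was 0.10. SLC30A3 differed by -0.34 ± 0.091 (adjusted p = 0.0603) and MTF1 by 0.12 ± 0.1002 (adjusted p = 0.466, limma). In the same comparison 7 of the 10 proliferation markers were called lower and none higher, and 5 of the 14 mesenchymal markers were called lower and 2, POSTN (0.30) and LUM (0.20, log2), higher, and their part in these values was not tested.

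In inflamed hIECs, 2 members rose with PM10 and none fell, where 6.22% of all genes tested were called higher and 9.02% lower. The median of the members was 0.14 beside -0.01 over all genes. MT1E rose by 0.34 ± 0.082 (SE, log2, limma, adjusted p = 0.035) and SLC39A7 by 0.18 ± 0.049 (adjusted p = 0.0487). Both calls were kept among the fits with 1 library fewer only when a normal library was left out, and otherwise lost, with an adjusted p between 0.0589 and 0.161 for MT1E and between 0.0831 and 0.205 for SLC39A7 (limma). Neither was called without the filter on low values (0.0512 and 0.0622). The call of MT1E was also lost with a pseudocount of 0.1 or 0.5 (0.0957 and 0.0554), and that of SLC39A7 without the trend (0.0931) and with the replicate number as a block (0.0542). In the same comparison 6 of the 14 mesenchymal markers were called lower, DCN (-0.72) and COL3A1 (-0.59) by the most, and 1, LUM (0.51, log2), higher. KRT18 was called lower (-0.35), LGR5 higher (0.49, log2) and 1 of the 10 proliferation markers lower. The part of these shifts in the values of the members was not tested.

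For MT2A the difference with PM10 in inflamed hIECs was 0.29 ± 0.093 (SE, log2, limma, adjusted p = 0.0778), for MT1X 0.05 ± 0.093 (adjusted p = 0.749) and for MT1F -0.26 ± 0.219 (adjusted p = 0.444). Several transporters had values above 0 that missed the threshold. They were 0.37 ± 0.135 for SLC39A4 (adjusted p = 0.109), 0.33 ± 0.113 for SLC30A6 (0.0912), 0.28 ± 0.083 for SLC39A6 (0.0598), 0.27 ± 0.088 for SLC39A14 (0.0806), 0.20 ± 0.076 for SLC30A1 (0.113) and 0.17 ± 0.077 for SLC39A8 (0.179). In normal hIECs the PM10 differences of SLC39A14 and SLC39A8 were 0.07 ± 0.088 and 0.18 ± 0.077 (adjusted p = 0.656 and 0.177, limma). The signs of the PM10 differences were the same in normal and inflamed hIECs for 15 of 23 members, beside 60.4% of all genes tested, and opposite for 7. SLC30A3, listed at 0 in all inflamed libraries, had no sign there.

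**Figure D4:**
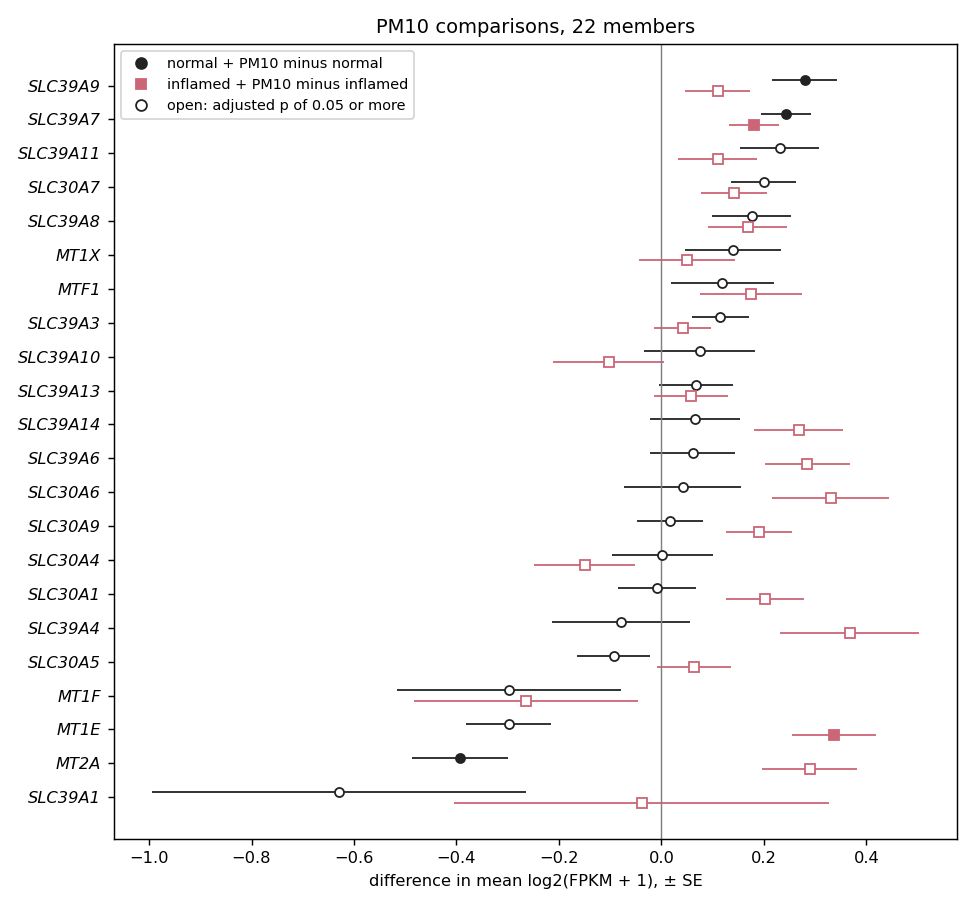
Difference in mean log2(FPKM + 1) with its SE from limma for 22 members, normal with PM10 minus normal (black circles) and inflamed with PM10 minus inflamed (red squares), with open symbols where the adjusted p was 0.05 or more. MT2A and MT1E lie to the left of 0 in normal hIECs and to the right in inflamed hIECs, and SLC30A3, listed at 0 in inflamed hIECs, is not drawn.

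Whether the PM10 difference was the same in inflamed as in normal hIECs was tested as an interaction, the PM10 difference in inflamed minus that in normal hIECs, which uses the same libraries as both PM10 comparisons. It was called higher for 2 members and lower for none, where 2.11% of all genes tested were called higher and 4.48% lower. These 2 were MT2A (0.68 ± 0.132, SE, log2, limma, adjusted p = 0.0292) and MT1E (0.64 ± 0.116, adjusted p = 0.0253), the metallothioneins whose levels were lower with PM10 in normal hIECs (67.6 against 89.5 FPKM for MT2A and 0.700 against 1.09 FPKM for MT1E) and higher with PM10 in inflamed hIECs (483 against 395 FPKM and 13.98 against 10.9 FPKM). Neither gene was called in both PM10 comparisons, since MT1E was not called in normal hIECs (adjusted p = 0.063, limma) nor MT2A in inflamed hIECs (0.0778). Both interactions were called in all 9 other settings of scaling, filter, pseudocount and fit (adjusted p between 0.0119 and 0.0491, limma). With 1 library left out, both calls held without either normal library and were lost without any 1 of the other 6, with an adjusted p between 0.0752 and 0.104 and differences between 0.61 and 0.73.

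The interaction was -0.09 ± 0.132 for MT1X (SE, log2, limma, adjusted p = 0.735) and 0.03 ± 0.310 for MT1F (adjusted p = 0.963). Among the transporters it was 0.45 ± 0.192 for SLC39A4 (adjusted p = 0.214), 0.22 ± 0.118 for SLC39A6 (0.302), 0.20 ± 0.124 for SLC39A14 (0.371) and 0.59 ± 0.516 for SLC39A1 (0.541), and none of the 18 was called. Of the 10 proliferation markers, 2 had an interaction called higher, and 4 of the 14 mesenchymal markers had one called higher and 4 lower.

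Genes of related metal pathways were taken from lists that hold no member. The shares of all genes called, against which their counts are set, were 25.9% higher and 30.3% lower with cytokines without PM10, 25.8% and 39.6% with cytokines in its presence, 5.51% and 3.72% with PM10 in normal hIECs, and 6.22% and 9.02% with PM10 in inflamed hIECs. Of the copper genes, 17 were tested, of which 7 rose and 2 fell with cytokines without PM10, and 7 rose and 3 fell in the presence of PM10. With PM10, 1 rose in normal hIECs, and 4 rose and 2 fell in inflamed hIECs. CCS, the copper chaperone of superoxide dismutase, went from 30.3 and 29.5 FPKM in normal to 16.2 and 16.1 FPKM in inflamed hIECs, and from 27.3 and 29.5 to 12.9 and 12.5 FPKM in the presence of PM10 (-1.10 ± 0.055, log2 ± SE, limma, adjusted p = 2.87e-06). HEPH, a ferroxidase that needs copper, rose from 51.7 and 48.3 to 85.8 and 81.8 FPKM in the presence of PM10 (0.73 ± 0.094, adjusted p = 0.000341), and STEAP3, a metalloreductase, fell from 3.80 and 3.87 to 2.08 and 1.78 FPKM without PM10 (-0.72 ± 0.093, adjusted p = 0.000455).

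Of the genes of iron, calcium and magnesium absorption, 14 were tested, of which 8 rose and 5 fell without PM10, and 8 rose and 4 fell in its presence. With PM10, 5 rose and 1 fell in normal hIECs, and 2 rose and 1 fell in inflamed hIECs. CLCN2, 1 of those that fell with cytokines in both comparisons, passed the filter only through the 4 libraries without cytokines. ATP2B1, the plasma membrane calcium pump, rose from 13.5 and 11.6 to 40.2 and 39.5 FPKM without PM10 (1.60 ± 0.071, log2 ± SE, limma, adjusted p = 2.19e-06). SLC40A1, the iron exporter ferroportin, fell from 8.66 and 9.47 to 2.87 and 2.79 FPKM in the presence of PM10 (-1.39 ± 0.090, adjusted p = 9.90e-06). VDR, the vitamin D receptor, rose from 1.55 and 1.78 to 5.28 and 5.29 FPKM in the same comparison (1.24 ± 0.087, adjusted p = 1.50e-05).

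A further list, drawn up from textbook knowledge, held genes linked to MTF1 or zinc, not all of them known targets of MTF1 or zinc-binding genes. Of these, 13 were tested, of which 5 rose and 4 fell with cytokines without PM10, and 5 rose and 3 fell in the presence of PM10. With PM10, 2 rose and 1 fell in normal hIECs, and 4 rose and 1 fell in inflamed hIECs. Of the 13, GPR39 passed the filter only through 2 libraries with cytokines and AMT only through 2 without. Leaving out both, 4 of 11 rose and 4 fell with cytokines without PM10, 4 rose and 3 fell in its presence, and 3 rose and 1 fell with PM10 in inflamed hIECs. GPR39, a receptor for extracellular zinc, was listed at 0 in the 4 libraries without cytokines, and was at 0.838 and 0.738 FPKM in inflamed hIECs and at 1.62 and 1.69 FPKM in inflamed hIECs with PM10. GCLM, a subunit of the enzyme that starts glutathione synthesis, rose from 1.70 and 1.46 to 3.96 and 4.06 FPKM in the presence of PM10 (0.96 ± 0.081, log2 ± SE, limma, adjusted p = 3.92e-05). HMOX1, heme oxygenase 1, fell from 10.5 and 9.86 to 5.17 and 4.75 FPKM in the same comparison (-0.91 ± 0.080, adjusted p = 4.83e-05).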

How the data were processed

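Per the labels and the study's methods, RNA of hIECs made from H9 cells was sequenced after poly-A selection, without strand information, as 2 × 100 bases. After cutadapt and Sickle had trimmed the reads, the authors mapped them to GRCh38 (hg38) with HISAT2 and deposited FPKM values from StringTie, 1 file per library. The annotation release they used is not given in the sources used here. Because FPKM are not counts, no count model was used.

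Values were transformed to log2(FPKM + 1), and genes that reached 1 FPKM in 2 or more of the 8 libraries were fitted with limma 3.58.1 (R 4.3.3, variance trend, 4 group means, all 8 libraries). The comparisons were PM10 in normal hIECs, cytokines without PM10, PM10 in inflamed hIECs, cytokines with PM10, and their interaction. Gene positions came from GENCODE release 44, in which 99.5% of the deposited gene identifiers were found, and promoter sequences from RefSeq (GRCh38.p14). Another promoter motif that was searched is not reported here. Protein sequences were not used here. Every member with a value was named. In each list of related genes, up to 3 called genes with the largest difference in any comparison were named. The members and lists were chosen with earlier results of these data known. Alternatives changed the pseudocount (0.1 and 0.5), the filter, the scaling (median centring, quantile normalization, mitochondrial DNA genes left out), the groups fitted, the trend, the gene types and the replicate number as a block, and left out each library in turn. Python 3.11.15 with pandas 2.3.3 and matplotlib 3.10.9 was used for tables and plots.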

Additional observations from a re-analysis of the deposited data

Results flagged for a closer look

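For MT2A and MT1E the PM10 difference was not the same in inflamed as in normal hIECs, by the interaction term of the limma fit. The interaction was 0.68 ± 0.132 (SE, log2, adjusted p = 0.0292) for MT2A and 0.64 ± 0.116 (adjusted p = 0.0253) for MT1E. In normal hIECs both PM10 libraries were below both libraries without PM10, and in inflamed hIECs both were above. Libraries with and without PM10 did not overlap for 11 of 23 members in normal and 16 of 23 in inflamed hIECs, so this is not particular to MT2A and MT1E. The share over all genes was not counted. The single PM10 difference was not called for MT1E in normal hIECs (adjusted p = 0.063, limma) or for MT2A in inflamed hIECs (0.0778). With 2 libraries a group, leaving out any 1 library other than a normal one took both adjusted p-values above the threshold, to between 0.0752 and 0.104.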

How the results depend on the processing

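Of the 47 differences of members called, none changed sign in any setting, and 25 kept their call in every one. Of the 68 not called, 7 changed sign with another setting and 21 with a library left out. The number of members called with PM10 in normal hIECs went from 3 to 1 without the filter or the trend, to 0 with only the groups compared, and to between 0 and 6 with 1 library left out. With PM10 in inflamed hIECs it went from 2 to 1 with a pseudocount of 0.1 or 0.5 or no trend, to 0 without the filter, to 4 with median centring, to 5 with only the groups compared, and to between 0 and 7 with 1 library left out. With cytokines it lay between 14 and 19 without PM10 and between 13 and 18 with PM10 when 1 library was left out, and for the interaction between 0 and 3. Summing SLC39A1 with AL358472.7, chosen after seeing the data, turned its differences from -0.63 to 0.0595 with PM10 in normal hIECs, from -0.039 to 0.0465 with PM10 in inflamed hIECs and from 0.59 to -0.0131 for the interaction.

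With 1 library left out, other differences that were not called changed sign. With PM10 in normal hIECs, MT1X ranged from -0.00315 to 0.281, MT1F from -0.696 to 0.101, SLC39A14 from -0.0636 to 0.195 and SLC39A1 from -1.32 to 0.0648. With PM10 in inflamed hIECs SLC39A1 ranged from -0.0870 to 0.00931, and with cytokines without PM10 SLC30A5 ranged from -0.0186 to 0.139. For the interaction, MT1X ranged from -0.231 to 0.0531, MT1F from -0.365 to 0.432 and SLC39A1 from -0.104 to 1.28. With mitochondrial DNA genes left out of the scaling, the summed metallothionein level moved by less than its SD in each group. Leaving out 1 of 2 libraries always moves a group mean by less than its SD, so those fits could not show whether the sum was stable.

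Libraries of different groups share replicate numbers, and their deviations correlated by -0.00151 to 0.0793, so the numbers were not taken as pairs. With the replicate number as a block, 1 member in place of 2 was called with PM10 in inflamed hIECs. Scaling moved the share of called genes that were higher with PM10 in normal hIECs from 59.7% to 42.9% (median centring), 49.8% (quantile normalization) or 75.4% (mitochondrial DNA genes left out), and for the interaction from 32.0% to 45.7%, 46.6% or 28.9%. The lowest level above 0 in a library was between 0.164 and 0.228 FPKM. Between 27 and 43 genes of a library shared this lowest level exactly, so a lower level could not be told from 0 in these values.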

Other observations

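The name rule also matched 4 genes that are annotated as pseudogenes of the metallothionein cluster and were not counted as members. MT1CP, MT1DP and MT1JP were listed at 0 in all 8 libraries. MT1L was at 0.708 and 0.299 FPKM in normal hIECs, at 0 in both normal libraries with PM10, at 4.11 and 3.66 FPKM in inflamed hIECs and at 2.70 and 3.16 FPKM in inflamed hIECs with PM10. The 4 libraries with cytokines were above the other 4. How reads of this pseudogene were separated from those of the coding copies is not given in the sources used here.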
